A study of Caenorhabditis elegans with 46 samples.

Results

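The arms numbered miR-1800 to miR-2999 were 69 of the 473 worm microRNA arms in the count tables of 46 small RNA libraries from Caenorhabditis elegans larvae. They were chosen by name alone: an arm belonged if its name lay in the range from miR-1800 to miR-2999, whatever its letter suffix or arm, and 3 numbers in that range were not used here. The 69 arms came from 36 hairpins, of which 33 were listed with both arms. 28 arms, from 14 hairpins, ran from miR-1817 to miR-1833 and 41 arms, from 22 hairpins, ran from miR-2207 to miR-2221. Of the 69 arms, 68 had at least 1 count in some library, and miR-2217b-1-5p had 0 counts in every library.

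A microRNA hairpin is trimmed to a short duplex, and either side, the 5p or the 3p arm, can be loaded into an Argonaute protein to guide repression of messenger RNAs. Sodium periodate destroys the free hydroxyl pair at the end of an RNA so that it is not ligated into a library, and a methyl group on the terminal sugar protects the RNA from it. Animal microRNAs ordinarily lack this methyl group, whereas the plant enzyme HEN1 adds it to microRNAs and the worm's own enzyme HENN-1 adds it to other small RNAs, among them Piwi-interacting RNAs. The arms described here are not among the first-numbered worm microRNAs, though higher numbers exist, and most of them have no well-described role.

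Each genotype was sequenced from whole larvae of the first larval stage with periodate and without it. Transgenic worms carried Ath-HEN1, the HEN1 enzyme of Arabidopsis thaliana. In 8 genotypes the worms were also henn-1(0), so that their own enzyme was missing: these were rps-5:Ath-HEN1, with the promoter of a ribosomal protein gene used in many tissues, rab-3:Ath-HEN1, unc-31:Ath-HEN1 and rgef-1:Ath-HEN1, with neuronal promoters, elt-2:Ath-HEN1 for the intestine, myo-2:Ath-HEN1 for pharyngeal muscle, myo-3:Ath-HEN1 for body wall muscle, and ASE:Ath-HEN1, labelled for the ASE taste neurons. In 2 further genotypes, myo-3:Ath-HEN1 wild type and ASE:Ath-HEN1 wild type, the transgene was present with the worm's own enzyme intact, written henn-1(+) here. The wild type strain N2 had no transgene and its own henn-1. Every genotype had 2 libraries with and 2 without periodate, except rps-5, which had 3 of each, 2 of those 3 replicates being from 1 strain. The series' design text calls the replicates biological, and the p-values below measure the spread between these libraries. Transgene expression was not measured here, and the promoters' tissues are background knowledge. The labels name no round of library preparation, so differences between genotypes cannot be told apart from differences between rounds, if there were any.

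The oxidised libraries held 425711 to 35253784 counts and the untreated libraries 10674772 to 43302426. The 3 shallowest were oxidised libraries of wild type and ASE henn-1(+) worms, and 3 counts came to 7.05 and 3.54 CPM (counts scaled to a library total of 1000000) in oxidised wild type worms, against a median of 0.447 CPM over oxidised and 0.187 CPM over untreated libraries. MicroRNA arms known to mark single tissues were checked against the promoters: on the log2 scale lsy-6-3p, of the left ASE neuron, rose by 5.25 with ASE:Ath-HEN1 henn-1(0), miR-124-3p, of neurons, rose by 1.44 with rab-3, 2.15 with unc-31 and 2.66 with rgef-1, miR-60-3p, of the intestine, rose by 1.52 with elt-2, and miR-1-3p, of muscle, rose by 2.38 with myo-2 and, in henn-1(0) worms, by 3.46 with myo-3. The 2 neuronal markers also rose with other drivers of neurons, miR-124-3p by 2.34 with ASE:Ath-HEN1 henn-1(0) and lsy-6-3p by 1.90 with unc-31. lsy-6-3p was not called with rab-3 (log2 change 1.41, edgeR adjusted p = 0.0743) or rgef-1 (log2 change 1.29, edgeR adjusted p = 0.0591). With the broad rps-5 driver miR-1-3p rose by 1.41, but the log2 change was -1.72 for lsy-6-3p and -0.89 for miR-60-3p, both called lower, and 0.47 for miR-124-3p, which was not called.

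Of the 36 hairpins, 35 matched the gene annotation of genome build WBcel235, and miR-2217b-4 did not. There were 8 on chromosome I, 5 on II, 2 on III, 11 on IV, 1 on V and 8 on X. Introns of protein-coding genes, on the gene's own strand, held 9 of them. These hosts included pash-1, a partner of Drosha in cutting hairpins, which holds miR-1828 (chromosome I, 10600463 to 10600525, plus strand), qars-1, a glutaminyl-tRNA synthetase, with miR-1833 (chromosome IV, 15012347 to 15012419, minus strand), and paic-1 and gmps-1, enzymes of purine synthesis, with miR-1830 (chromosome II, 4371838 to 4371907, minus strand) and miR-2216 (chromosome II, 10867116 to 10867172, minus strand). The SR splicing factor gene rsp-8 holds miR-1832a, and Y116A8C.27 holds miR-1832b (chromosome IV, 17092861 to 17092927, minus strand). The miR-1829 hairpins lie in introns of 3 genes of the X chromosome, miR-1829a in the mitochondrial complex I gene gas-1 (chromosome X, 15588311 to 15588370, minus strand), miR-1829b in F20D1.3 (chromosome X, 14977119 to 14977178, plus strand) and miR-1829c in the lipid kinase gene piki-1 (chromosome X, 15236362 to 15236423, minus strand). No host intron was filled end to end by its hairpin: the closest approach of a same-strand hairpin to an intron end was 75 bases, for miR-1828.

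A further 3 hairpins lay in introns of genes on the opposite strand (miR-1824, miR-2217b-1 and miR-2218a), miR-2210 overlapped an exon of ZK593.2 (chromosome IV, 10914618 to 10914678, plus strand), and 22 lay between protein-coding genes. The hairpins of miR-2208a, miR-2208b, miR-2209a, miR-2209b and miR-2209c stood within 1 stretch of chromosome IV, 1021303 to 1027281, with miR-2209b on the other strand from the rest. The miR-1819 and miR-2212 hairpins were 67 bases apart on the plus strand of the X chromosome, 16207829 to 16208035. Several arms shared their reads with a copy: miR-1829b-3p and miR-1829c-3p had equal counts in 44 of 46 libraries, and miR-2217b-1-3p and miR-2217b-4-3p in 46 of 46, so these pairs cannot be told apart.

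In untreated worms the arms were scarce. Together they took 0.0681% to 0.178% of a library's counts, with a median of 0.0971%, and 10 arms averaged at least 10 CPM, 21 averaged 1 to 10 CPM and 38 averaged under 1 CPM over the 23 untreated libraries. Counts were concentrated in few arms: 6 of them held 85.1% of all counts of these arms in untreated libraries, and miR-1820-5p alone held 40.3%. miR-1820-5p averaged 406 ± 93.8 CPM (SD, n = 23 libraries; lowest 249.6, median 390.4, highest 606 CPM), the 72nd most abundant worm arm. miR-1829b-5p averaged 192 ± 92.0 CPM (lowest 80.6, median 175, highest 548 CPM) and miR-1829c-5p averaged 84.0 ± 41.0 CPM (lowest 42.8, highest 222 CPM). These were followed by miR-1818-5p at 77.2 ± 29.5 CPM (lowest 17.4, highest 129 CPM), miR-1824-5p at 68.0 ± 20.8 CPM (lowest 18.6, highest 110.5 CPM) and miR-1829a-3p at 29.6 ± 6.99 CPM (lowest 20.0, highest 54.3 CPM). Neighbours in this order from miR-1829c-5p to miR-1824-5p differed by less than their spread over libraries. Levels of different arms are compared here without a length correction, since mature arms are of nearly equal length.

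**Figure D1:**
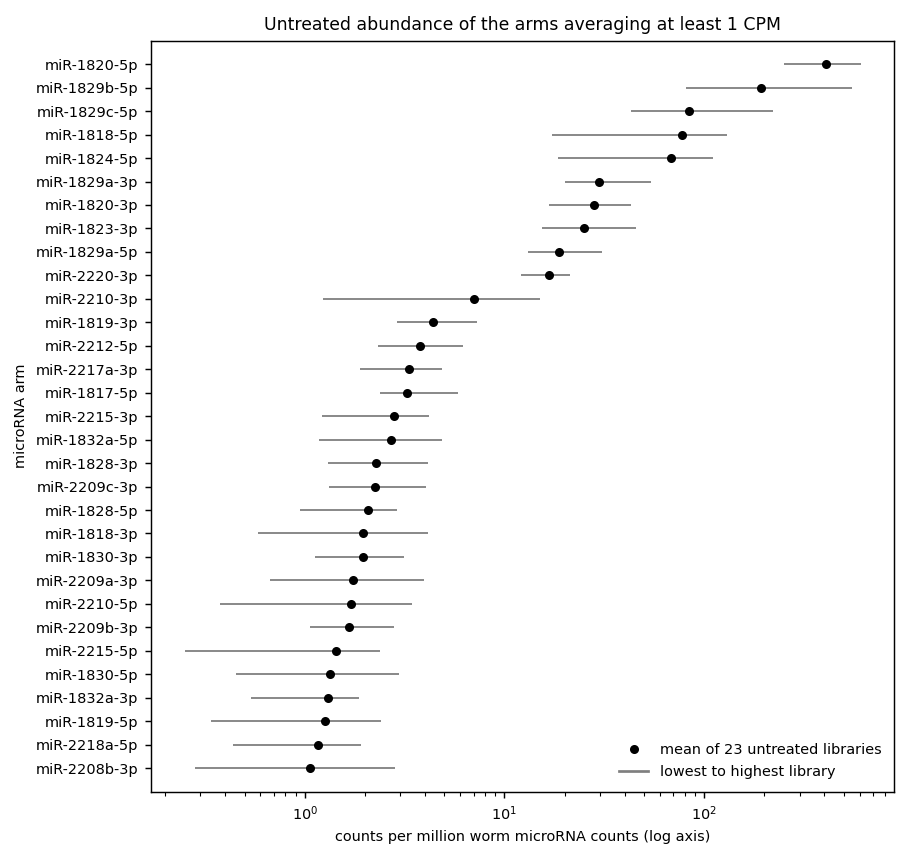
Abundance in untreated libraries of the 31 arms that averaged at least 1 CPM, on a log scale of CPM. Each dot is the mean of 23 libraries and each line runs from the lowest to the highest library; miR-1820-5p, at 406 CPM, stands highest.

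Among the 11 untreated genotypes, 2 of the 53 tested arms differed, 3.77% of them against 7.34% of all 395 arms tested. miR-2215-5p averaged 2.27 CPM in untreated myo-2 worms and 0.544 CPM in untreated rps-5 worms, the highest and lowest of the 11 means (edgeR adjusted p = 0.0368). miR-1832b-5p averaged 0.305 CPM in untreated rps-5 worms and had 0 counts in untreated rab-3 worms (edgeR adjusted p = 0.0421). Both calls were unstable to leaving out 1 untreated library. The count was 0 without either library of rab-3, rgef-1, myo-2, myo-3 henn-1(+) or ASE henn-1(+) worms, or without 1 of the rps-5 replicates 16.1, unc-31 replicate 5, ASE henn-1(0) replicate 5 or wild type replicate 2. It was 1 without the other rps-5 replicates, unc-31 replicate 1, elt-2 replicate 3A, myo-3 henn-1(0) replicate 2.2 or wild type replicate 1, and 4 without ASE henn-1(0) replicate 9. In whole larvae fewer cells of a type and less RNA per cell cannot be told apart.

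The main comparison set oxidised against untreated libraries within each genotype. Of the 69 arms, 53 had counts enough to be tested and 16 did not. A CPM value is a share of the library, so a rise after periodate says that an arm was lost less than the library as a whole, and it does not give a number of molecules. An arm is said to have risen or fallen only where the adjusted p of edgeR's quasi-likelihood test (Benjamini-Hochberg over 395 arms) was under 0.05 in the same direction under 3 scalings of the libraries, by total counts, TMM and RLE. Log2 changes follow the total-count scaling, and the adjusted p printed is the largest of the 3. After the ± sign stands a standard error taken from the test, the log2 change over the square root of its F statistic. Where a group held few counts this value can be smaller than the counting error, and it then does not give the certainty of a size. The TMM scaling moved the median arm by -2.09 in wild type worms relative to the total-count scaling, against 0.30 for RLE, and the RLE scaling moved it by 1.75 in myo-3 henn-1(0) worms, against 0.05 for TMM. Where a group had 0 counts, a lower bound is given with 3 counts in the whole group in place of 0, and where it had 1 to 3 counts, the ratio is given with its counting interval. Beside an arm given with its values, the libraries are named whose absence ended its call. Calls that enter only a count or a list of arms may also have been lost when 1 library was left out.

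Across the 11 genotypes, 50 of the 53 tested arms rose or fell in at least 1. Of these, 15 only rose, 20 only fell and 15 rose in some genotypes and fell in others. In a single genotype 9 to 38 of the 53 arms were called, and 102 to 266 of all 395 arms. Counts over genotypes were not taken for all 395 arms, so they do not set these arms apart. miR-1830-3p and miR-1832b-3p rose in all 11 genotypes, miR-1832b-5p and miR-2219-5p in 10, miR-1833-3p and miR-2219-3p in 9, and miR-2216-5p in 8. In the other direction miR-1829a-3p fell in 10 genotypes and miR-2220-3p in 9. Each of these arms lost some calls when 1 library was left out. Those kept in every such fit were 9 of 11 for miR-1830-3p, 7 of 11 for miR-1832b-3p, 8 of 10 for miR-1832b-5p, 7 of 10 for miR-2219-5p, 7 of 9 for miR-1833-3p, 4 of 9 for miR-2219-3p, 7 of 8 for miR-2216-5p, 7 of 10 for miR-1829a-3p and 7 of 9 for miR-2220-3p. In the rps-5 lines the rise of miR-1830-3p (log2 change 1.22) was lost without 1 of the oxidised replicates 16.1, oxidised replicate 22.3, 1 of the untreated replicates 16.1 or untreated replicate 22.3, with TMM scaled to an untreated wild type library, with no count filter and in a fit of this genotype alone (largest adjusted p = 0.168 without 1 library). In myo-3 henn-1(0) worms that rise was lost without untreated replicate 11.16 (largest adjusted p = 0.117). miR-1832b-3p lost its call with unc-31 without oxidised replicate 1, with elt-2 without oxidised replicate 3A, in myo-3 henn-1(0) worms without oxidised replicate 2.2 or untreated replicate 11.16, and in ASE henn-1(0) worms without either oxidised library or untreated replicate 9 (largest adjusted p = 0.419). The 3 arms that neither rose nor fell anywhere were miR-2218a-5p, miR-2208a-3p and miR-2221-3p. These counts are not evenly certain, since 140 of the 352 calls made in the 18 comparisons of oxidation effects were lost when 1 library was left out.

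**Figure D2:**
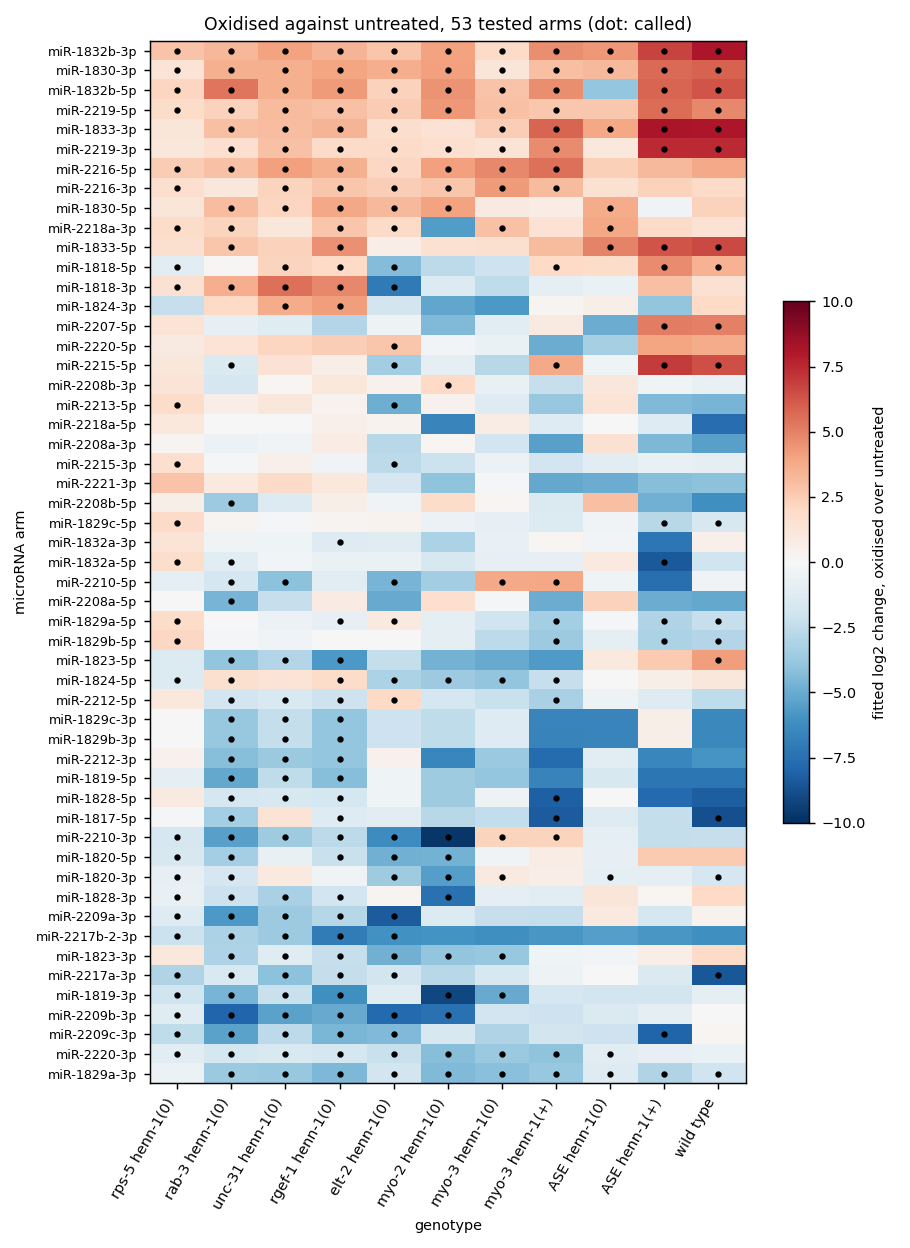
Log2 change, oxidised over untreated, of the 53 tested arms (down the page) in the 11 genotypes (across, transgenic worms first and wild type last); a dot marks an arm that rose or fell under all 3 scalings. Colours of arms with 0 counts on a side give no size; miR-1830-3p and miR-1832b-3p carry a dot in every column.

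In the genotypes with an intact henn-1 the comparison addressed which arms periodate spared when the worm's own enzyme was present, and wild type worms had no plant enzyme besides. In wild type worms 11 of the 53 tested arms rose, 20.8% of them against 20.8% of all 395 arms, and 7 fell, 13.2% against 21.0%. Medians of the log2 change were -0.36 for these arms and -0.11 for all arms, or 0.00 and 0.00 with arms at 0 counts on a side set to their bounds. Both arms of miR-1833, both of miR-1832b and both of miR-2219 were among the risers. miR-1832b-3p had 39.9 and 31.9 CPM in the oxidised libraries, against 0.209 and 0.0277 CPM in the untreated libraries (log2 change 8.11 ± 0.81, edgeR adjusted p = 9.90e-09). miR-1833-3p had 75.2 and 87.4 CPM in the oxidised libraries, against 0.314 and 0.277 CPM in the untreated libraries (log2 change 8.07 ± 0.45, edgeR adjusted p = 2.16e-13). miR-2219-3p had 70.5 and 67.3 CPM in the oxidised libraries, against 0.471 and 0.277 CPM in the untreated libraries (log2 change 7.49 ± 0.55, edgeR adjusted p = 5.29e-11). Each oxidised library was far above each untreated one for all 3 arms, and each of them was under 1 CPM in both untreated libraries. The partner arm miR-1833-5p had 4.70 and 7.08 CPM in the oxidised libraries, against 0 and 0.111 CPM in the untreated libraries (log2 change 6.64 ± 1.16, edgeR adjusted p = 0.000296), and its untreated libraries held few reads. Also higher in both oxidised libraries were miR-1832b-5p (log2 change 6.28 ± 0.81, edgeR adjusted p = 1.78e-05), miR-2219-5p (log2 change 4.82 ± 0.79, edgeR adjusted p = 0.00134), miR-1830-3p (log2 change 5.91 ± 0.45, edgeR adjusted p = 1.03e-09) and miR-2215-5p (log2 change 6.45 ± 0.55, edgeR adjusted p = 3.06e-09). The risers in wild type worms included 1 abundant arm: miR-1818-5p had 279.5 and 995 CPM in the oxidised libraries, against 39.4 and 73.4 CPM in the untreated libraries (log2 change 3.50 ± 0.61, edgeR adjusted p = 0.0212). miR-2207-5p and miR-1823-5p completed the 11. miR-1833-5p lost its call without oxidised replicate 2 (largest adjusted p = 0.0578). miR-1818-5p lost its call without oxidised replicate 2 or untreated replicate 1 (largest adjusted p = 0.953). miR-2207-5p lost its call without oxidised replicate 2 or untreated replicate 1 (largest adjusted p = 0.845), and its log2 change ran from -3.85 to 5.95 over the fits without 1 library, so that its direction turned. miR-1823-5p lost its call without oxidised replicate 1 or untreated replicate 1 (largest adjusted p = 0.357).

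The 7 falls in wild type worms included 4 of the 6 tested arms of the miR-1829 family, 66.7% of them against 21.0% of all arms. miR-1829b-5p had 23.5 and 20.1 CPM in the oxidised libraries, against 217 and 116 CPM in the untreated libraries (log2 change -2.95 ± 0.59, edgeR adjusted p = 0.00017), so both oxidised libraries lay below both untreated ones. miR-1829a-5p (log2 change -2.32 ± 0.57, edgeR adjusted p = 0.00202), miR-1829a-3p (log2 change -2.0 ± 0.54, edgeR adjusted p = 0.00222) and miR-1829c-5p (log2 change -1.60 ± 0.60, edgeR adjusted p = 0.0401) fell too. The oxidised libraries held 3 and 1 counts of miR-1829a-5p and 4 and 4 of miR-1829a-3p, so the fit does not fix their sizes. miR-1817-5p had 0 and 0 CPM in the oxidised libraries, against 3.48 and 3.83 CPM in the untreated libraries (at least 1.55-fold lower, edgeR adjusted p = 0.0145). miR-2217a-3p had 0 and 0 CPM in the oxidised libraries, against 3.21 and 2.65 CPM in the untreated libraries (at least 1.25-fold lower, edgeR adjusted p = 0.0288). Both were at 0 in libraries in which 3 counts came to 7.05 and 3.54 CPM. Without oxidised replicate 1 the 7 falls became 4 and without oxidised replicate 2 they became 1. miR-1817-5p lost its call without either oxidised library (largest adjusted p = 0.155). miR-2217a-3p lost its call without either oxidised library, in DESeq2 (largest adjusted p = 0.209). miR-1829a-5p lost its call without oxidised replicate 2 (largest adjusted p = 0.157). miR-1829a-3p lost its call without oxidised replicate 2 (largest adjusted p = 0.0975). miR-1820-3p lost its call without either oxidised library (largest adjusted p = 0.12). miR-1829c-5p lost its call without any 1 of the 4 libraries, in a fit of this genotype alone (largest adjusted p = 0.324). The most abundant arm, miR-1820-5p, had 2483 and 1344 CPM in the oxidised libraries, against 361 and 256 CPM in the untreated libraries. Both oxidised libraries were higher, but the difference passed under total counts and RLE and not under TMM (edgeR adjusted p = 0.34), so it was not called.

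In myo-3:Ath-HEN1 worms with henn-1 intact, 12 of the 53 tested arms rose, 22.6% of them against 27.3% of all 395 arms, and 8 fell, 15.1% against 26.1%. Their log2 changes had medians of -1.38 for these arms and -0.89 for all arms, or 0.00 and 0.00 with arms at 0 counts on a side set to their bounds. miR-1833-3p had 13.2 and 15.9 CPM in the oxidised libraries, against 0.218 and 0.268 CPM in the untreated libraries (log2 change 5.86 ± 0.48, edgeR adjusted p = 1.14e-11). miR-2219-3p had 9.67 and 11.1 CPM in the oxidised libraries, against 0.509 and 0.268 CPM in the untreated libraries (log2 change 4.73 ± 0.58, edgeR adjusted p = 4.11e-08). miR-2216-5p had 11.4 and 8.65 CPM in the oxidised libraries, against 0.138 and 0.301 CPM in the untreated libraries (log2 change 5.50 ± 0.68, edgeR adjusted p = 2.24e-08). All 3 stood higher in both oxidised libraries, and miR-2216-3p, the other arm of its hairpin, rose as well (log2 change 3.18 ± 0.59, edgeR adjusted p = 7.53e-05). miR-1828-5p had 0 and 0 CPM in the oxidised libraries, against 2.55 and 2.14 CPM in the untreated libraries (at least 2.01-fold lower, edgeR adjusted p = 0.0178), and its hairpin lies in pash-1. miR-1817-5p had 0 and 0 CPM in the oxidised libraries, against 2.69 and 2.54 CPM in the untreated libraries (at least 2.25-fold lower, edgeR adjusted p = 0.00699). miR-2220-3p had 0.879 and 1.38 CPM in the oxidised libraries, against 20.9 and 17.3 CPM in the untreated libraries (16.4-fold lower with a 95% counting interval of 5.57 to 79.5, edgeR adjusted p = 6.25e-07). Neither oxidised library reached an untreated one for these arms. Of the miR-1829 family, miR-1829b-5p (log2 change -3.63 ± 0.58, edgeR adjusted p = 2.00e-05), miR-1829a-5p (log2 change -3.43 ± 0.55, edgeR adjusted p = 3.29e-05) and miR-1829a-3p (log2 change -3.77 ± 0.60, edgeR adjusted p = 5.45e-06) fell. They were 3 of the 6 tested arms of the family, 50% against 26.1% of all arms. The oxidised libraries held 2 and 2 counts of miR-1829a-5p and 0 and 4 of miR-1829a-3p, so the fit does not fix their sizes. The 8 falls became 5 without oxidised replicate 11, and miR-1817-5p lost its call without oxidised replicate 11 (largest adjusted p = 0.126). miR-1828-5p lost its call without either oxidised library (largest adjusted p = 0.152). miR-2219-5p lost its call without either oxidised library or untreated replicate 2, with TMM scaled to an untreated wild type library, with no count filter, with the replicate block (largest adjusted p = 0.312). miR-2210-3p lost its call without any 1 of the 4 libraries, with TMM scaled to an untreated wild type library and with no count filter (largest adjusted p = 0.145). miR-1818-5p lost its call without oxidised replicate 2, with no count filter (largest adjusted p = 0.0763). miR-2212-5p lost its call without either oxidised library, in DESeq2 (largest adjusted p = 0.159).

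In ASE:Ath-HEN1 worms with henn-1 intact, 10 of the 53 tested arms rose, 18.9% of them against 23.5% of all 395 arms, and 6 fell, 11.3% against 22.3%. On the log2 scale the medians were -0.92 for these arms and 0.01 for all arms, or 0.00 and 0.00 with arms at 0 counts on a side set to their bounds. miR-1833-3p had 93.3 and 62.3 CPM in the oxidised libraries, against 0.277 and 0.253 CPM in the untreated libraries (log2 change 8.14 ± 0.45, edgeR adjusted p = 6.52e-14). miR-2219-3p had 74.3 and 55.2 CPM in the oxidised libraries, against 0.393 and 0.303 CPM in the untreated libraries (log2 change 7.49 ± 0.54, edgeR adjusted p = 1.65e-11). miR-2215-5p had 69.6 and 97.9 CPM in the oxidised libraries, against 0.670 and 0.657 CPM in the untreated libraries (log2 change 6.97 ± 0.57, edgeR adjusted p = 2.53e-10). For each of them both oxidised libraries were far above both untreated ones, as in wild type worms. miR-1833-5p, the other arm of its hairpin, was close behind (log2 change 6.32 ± 1.05, edgeR adjusted p = 0.000129), and miR-2219-5p rose too (log2 change 5.55 ± 0.65, edgeR adjusted p = 3.48e-06). miR-2215-3p, the partner of miR-2215-5p, had 4.74 and 0 CPM in the oxidised libraries, against 3.05 and 2.68 CPM in the untreated libraries and was not called (edgeR adjusted p = 0.803). miR-1829b-5p had 19.0 and 28.4 CPM in the oxidised libraries, against 192 and 251 CPM in the untreated libraries (log2 change -3.20 ± 0.57, edgeR adjusted p = 7.20e-05), and the other falls in the family were miR-1829a-5p (-3.02 ± 0.56), miR-1829a-3p (-2.98 ± 0.55) and miR-1829c-5p (-2.77 ± 0.60). They were 4 of the 6 tested arms of the family, 66.7% against 22.3% of all arms. The oxidised libraries held 2 and 2 counts of miR-1829a-5p and 3 and 4 of miR-1829a-3p, so the fit does not fix their sizes. miR-1832a-5p had 0 and 0 CPM in the oxidised libraries, against 3.16 and 2.30 CPM in the untreated libraries (at least 1.74-fold lower, edgeR adjusted p = 0.0155). miR-2209c-3p had 0 and 0 CPM in the oxidised libraries, against 2.31 and 1.95 CPM in the untreated libraries (at least 1.35-fold lower, edgeR adjusted p = 0.0312). Neither arm had a count in an oxidised library. miR-1832a-5p lost its call without either oxidised library, in DESeq2 (largest adjusted p = 0.175). miR-2209c-3p lost its call without either oxidised library, in DESeq2 and with the replicate block (largest adjusted p = 0.24). Over the 3 genotypes with henn-1, 8 of the 53 arms rose in every one: miR-1830-3p, miR-1832b-3p, miR-1832b-5p, miR-1833-3p, miR-2219-3p, miR-2219-5p, miR-2215-5p and miR-1818-5p. How many of all 395 arms did so was not counted.

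**Figure D3:**
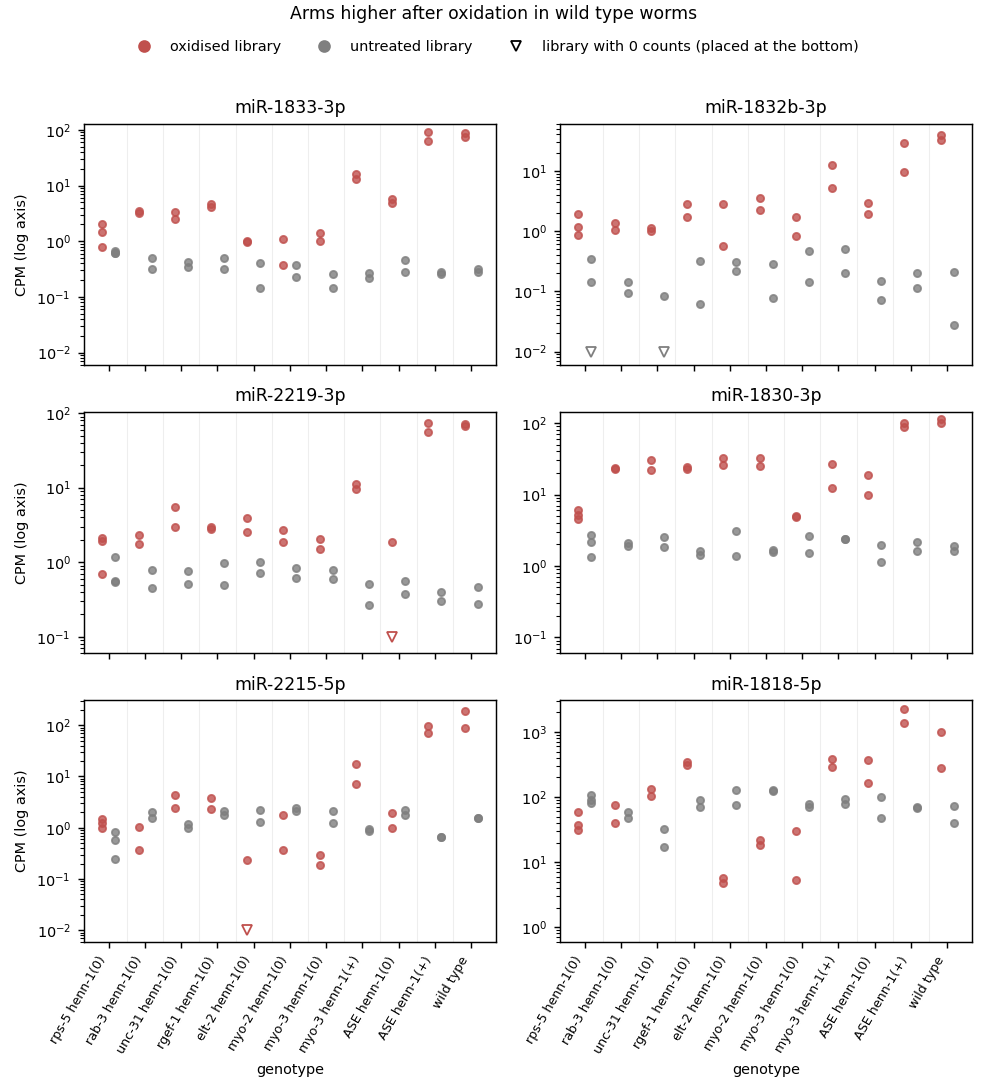
CPM on a log scale of miR-1833-3p, miR-1832b-3p, miR-2219-3p, miR-1830-3p, miR-2215-5p and miR-1818-5p in every library, oxidised left of untreated within each genotype; triangles at the bottom mark 0 counts. miR-2215-5p was called higher in the 3 genotypes with henn-1 and in none without it, although in rps-5, unc-31 and rgef-1 worms each oxidised library also stood above each untreated one.

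Whether an arm's response to periodate differed with henn-1 was tested as a difference of log2 changes, henn-1(0) minus henn-1(+), for the same driver. For myo-3, 0 of the 53 arms were higher in this difference and 5 were lower, 9.43% of them against 11.6% of all arms lower and 0.253% higher. The 0 came from edgeR under 3 scalings, with 1 arm higher and 10 lower at an unadjusted p under 0.05, and 6 higher in DESeq2. miR-2215-5p differed by -6.52 ± 0.87 (edgeR adjusted p = 2.10e-05): it had 0.298 and 0.187 CPM in the oxidised libraries, against 2.09 and 1.22 CPM in the untreated libraries of henn-1(0) worms, and 7.03 and 17.3 CPM in the oxidised libraries, against 0.873 and 0.937 CPM in the untreated libraries of henn-1(+) worms. The oxidised libraries with henn-1 stood above all others for this arm. miR-1818-5p differed by -4.04 ± 0.81 (edgeR adjusted p = 0.00625): it had 30.4 and 5.32 CPM in the oxidised libraries, against 76.9 and 70.4 CPM in the untreated libraries of henn-1(0) worms, and 388 and 290.0 CPM in the oxidised libraries, against 77.7 and 92.5 CPM in the untreated libraries of henn-1(+) worms. The oxidised libraries lay below the untreated ones in henn-1(0) worms and above them in henn-1(+) worms. miR-1833-3p (-3.38 ± 0.75), miR-2219-3p (-3.35 ± 0.77) and miR-1823-3p (-3.35 ± 0.59) were the other 3. The 5 became 1 without myo-3 henn-1(+) oxidised replicate 2, and 3 without myo-3 henn-1(+) oxidised replicate 11 or untreated replicate 11, or without myo-3 henn-1(0) oxidised replicate 2.2, oxidised replicate 11.16 or untreated replicate 2.2. miR-1818-5p lost its call without henn-1(+) oxidised replicate 2 or henn-1(0) oxidised replicate 11.16 (largest adjusted p = 0.0591). miR-1833-3p lost its call without any 1 of the 4 henn-1(+) libraries or either henn-1(0) oxidised library or henn-1(0) untreated replicate 2.2, with TMM scaled to an untreated wild type library, with no count filter, with the replicate block (largest adjusted p = 0.348). miR-2219-3p lost its call without either henn-1(+) oxidised library or henn-1(+) untreated replicate 11 or henn-1(0) oxidised replicate 2.2 or either henn-1(0) untreated library, with TMM scaled to an untreated wild type library, with a minimum count of 30, with no count filter (largest adjusted p = 0.135). miR-1823-3p lost its call without henn-1(+) oxidised replicate 2, with no count filter (largest adjusted p = 0.112).

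For ASE, 3 of the 53 arms were higher in the difference, 5.66% of them against 15.7% of all arms, and 7 were lower, 13.2% against 14.2%. miR-2215-5p was again lower without henn-1, by -7.41 ± 0.88 (edgeR adjusted p = 6.67e-07): it had 0.989 and 1.89 CPM in the oxidised libraries, against 2.19 and 1.76 CPM in the untreated libraries of henn-1(0) worms, where it was not called. The oxidised libraries held 3 counts of it in all, so the fit does not fix the size of its difference. miR-2219-3p differed by -6.47 ± 0.96 (edgeR adjusted p = 4.36e-05), with 0 and 1.89 CPM in the oxidised libraries, against 0.377 and 0.564 CPM in the untreated libraries of henn-1(0) worms. Its reads in those shallow oxidised libraries were few, so the fit does not fix the size of this difference either. miR-1833-3p differed by -4.31 ± 0.68 (edgeR adjusted p = 0.000698), though it rose in both genotypes: in henn-1(0) worms it had 4.95 and 5.68 CPM in the oxidised libraries, against 0.453 and 0.282 CPM in the untreated libraries. The abundant miR-1820-5p differed by -3.45 ± 0.56 (edgeR adjusted p = 0.00175), with 198 and 224 CPM in the oxidised libraries, against 390.4 and 367 CPM in the untreated libraries of henn-1(0) worms, and 2945 and 3407 CPM in the oxidised libraries, against 438 and 606 CPM in the untreated libraries of henn-1(+) worms. For miR-1820-5p the oxidised libraries lay below the untreated ones in henn-1(0) worms and above them in henn-1(+) worms. miR-2207-5p and miR-1832b-5p were also lower in the difference, with edgeR adjusted p of 0.0177 and 0.0274, and miR-1832a-5p was higher with 0.0152, but a group at 0 counts leaves these 3 without a size. miR-1830-5p (4.08 ± 0.95, edgeR adjusted p = 0.0104) and miR-1829a-5p (2.79 ± 0.72, edgeR adjusted p = 0.0177) were higher. The oxidised henn-1(+) libraries held 0 and 2 counts of miR-1830-5p and 2 and 2 of miR-1829a-5p, so the fit does not fix their sizes. The 3 higher arms became 1 without ASE henn-1(+) oxidised replicate 9 or ASE henn-1(0) oxidised replicate 5. miR-1832a-5p lost its call without henn-1(+) oxidised replicate 9 or henn-1(0) oxidised replicate 5 (largest adjusted p = 0.119). miR-1830-5p lost its call without henn-1(+) oxidised replicate 5 or henn-1(0) oxidised replicate 9 (largest adjusted p = 0.0626). miR-1829a-5p lost its call without henn-1(+) oxidised replicate 9 or henn-1(0) oxidised replicate 5 (largest adjusted p = 0.153). miR-2207-5p lost its call without either henn-1(0) oxidised library or henn-1(0) untreated replicate 9 (largest adjusted p = 0.206). miR-1832b-5p lost its call without henn-1(+) oxidised replicate 9 or either henn-1(0) oxidised library or henn-1(0) untreated replicate 5 (largest adjusted p = 0.122). miR-1818-3p lost its call without either henn-1(+) oxidised library or henn-1(+) untreated replicate 9 or henn-1(0) oxidised replicate 9 or henn-1(0) untreated replicate 9, with the replicate block (largest adjusted p = 0.335).

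The rps-5 lines, with the enzyme in many tissues and no henn-1, gave the set against which the narrower drivers were read. In them 14 of the 53 tested arms rose, 26.4% of them against 23.8% of all 395 arms, and 13 fell, 24.5% against 21.0%. The median log2 change was 0.93 for these arms and 0.77 for all arms, or 0.93 and 0.77 with arms at 0 counts on a side set to their bounds. miR-1832b-3p had 0.854, 1.16 and 1.90 CPM in the oxidised libraries, against 0.142, 0.339 and 0 CPM in the untreated libraries (log2 change 2.88 ± 0.70, edgeR adjusted p = 0.00334). miR-2216-5p had 1.14, 1.51 and 1.47 CPM in the oxidised libraries, against 0.260, 0.356 and 0 CPM in the untreated libraries (log2 change 2.57 ± 0.52, edgeR adjusted p = 0.00198). miR-1832b-5p had 1.21, 1.23 and 1.5 CPM in the oxidised libraries, against 0.142, 0.271 and 0.501 CPM in the untreated libraries (log2 change 2.18 ± 0.48, edgeR adjusted p = 0.00563). For each of them all 3 oxidised libraries were above all 3 untreated ones. miR-2217a-3p had 0.320, 0.377 and 0.899 CPM in the oxidised libraries, against 4.85, 3.62 and 3.93 CPM in the untreated libraries (log2 change -3.02 ± 0.40, edgeR adjusted p = 2.21e-07). miR-2209c-3p had 0.213, 0.548 and 0.50 CPM in the oxidised libraries, against 1.51, 2.71 and 3.09 CPM in the untreated libraries (log2 change -2.51 ± 0.47, edgeR adjusted p = 4.78e-05). miR-2217b-2-3p had 0.107, 0.120 and 0 CPM in the oxidised libraries, against 0.615, 0.339 and 0.418 CPM in the untreated libraries (log2 change -2.11 ± 0.78, edgeR adjusted p = 0.0223). These 3 arms, all under 5 CPM before periodate, were lower in every oxidised library than in any untreated one. miR-1832b-3p lost its call in a fit of this genotype alone. miR-2216-5p lost its call in a fit of this genotype alone. miR-1832b-5p lost its call without untreated replicate 16.1, in a fit of this genotype alone (largest adjusted p = 0.0591). miR-2217b-2-3p lost its call without oxidised replicate 16.1 or untreated replicate 16.1, with the replicate block (largest adjusted p = 0.0965). Of the 27 calls in the rps-5 lines, 14 were lost without 1 library or another. The replicates 16.1 were of 1 strain but were fitted as separate replicates.

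The rps-5 lines were where the miR-1829 5p arms rose as a family. They were 3 of the 6 tested arms of the family, 50% against 23.8% of all arms. miR-1829b-5p had 1038, 421 and 978 CPM in the oxidised libraries, against 269, 104 and 214 CPM in the untreated libraries (log2 change 2.05 ± 0.42, edgeR adjusted p = 0.0017). miR-1829c-5p had 691, 195 and 400.3 CPM in the oxidised libraries, against 184, 54.3 and 106 CPM in the untreated libraries (log2 change 1.90 ± 0.43, edgeR adjusted p = 0.00322). miR-1829a-5p had 118, 60.3 and 75.4 CPM in the oxidised libraries, against 30.7, 17.3 and 21.7 CPM in the untreated libraries (log2 change 1.86 ± 0.30, edgeR adjusted p = 0.000133). All oxidised libraries exceeded all untreated ones for these 3 arms, and the 22.3 line had the lowest value of each on both sides. The 3p arms of the family did not pass: the abundant miR-1829a-3p had 26.9, 16.7 and 22.1 CPM in the oxidised libraries, against 36.0, 27.8 and 33.6 CPM in the untreated libraries (edgeR adjusted p = 0.121). In this family miR-1829b-5p lost its call in a fit of this genotype alone. miR-1829c-5p lost its call without oxidised replicate 16.1, in a fit of this genotype alone (largest adjusted p = 0.0634). The most abundant arm fell: miR-1820-5p had 219.8, 77.7 and 131 CPM in the oxidised libraries, against 564, 333 and 393 CPM in the untreated libraries (log2 change -1.59 ± 0.32, edgeR adjusted p = 0.000113). miR-1824-5p had 26.5, 34.6 and 32.8 CPM in the oxidised libraries, against 81.5, 78.6 and 82.3 CPM in the untreated libraries (log2 change -1.37 ± 0.27, edgeR adjusted p = 8.49e-05). Both were lower in all 3 oxidised libraries. The miR-1818 hairpin was the 1 of 22 hairpins with both arms tested whose arms moved apart here: miR-1818-3p had 6.62, 8.97 and 3.60 CPM in the oxidised libraries, against 2.22, 2.98 and 1.5 CPM in the untreated libraries (log2 change 1.51 ± 0.39, edgeR adjusted p = 0.0232), while miR-1818-5p had 31.1, 36.9 and 58.1 CPM in the oxidised libraries, against 109, 81.7 and 90.4 CPM in the untreated libraries (log2 change -1.16 ± 0.45, edgeR adjusted p = 0.0271). miR-1818-3p lost its call without oxidised replicate 16.1 or 22.3 or untreated replicate 16.1, in a fit of this genotype alone (largest adjusted p = 0.113). miR-1818-5p lost its call without oxidised replicate 16.1 or 22.3 or untreated replicate 16.1 (largest adjusted p = 0.104).

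**Figure D4:**
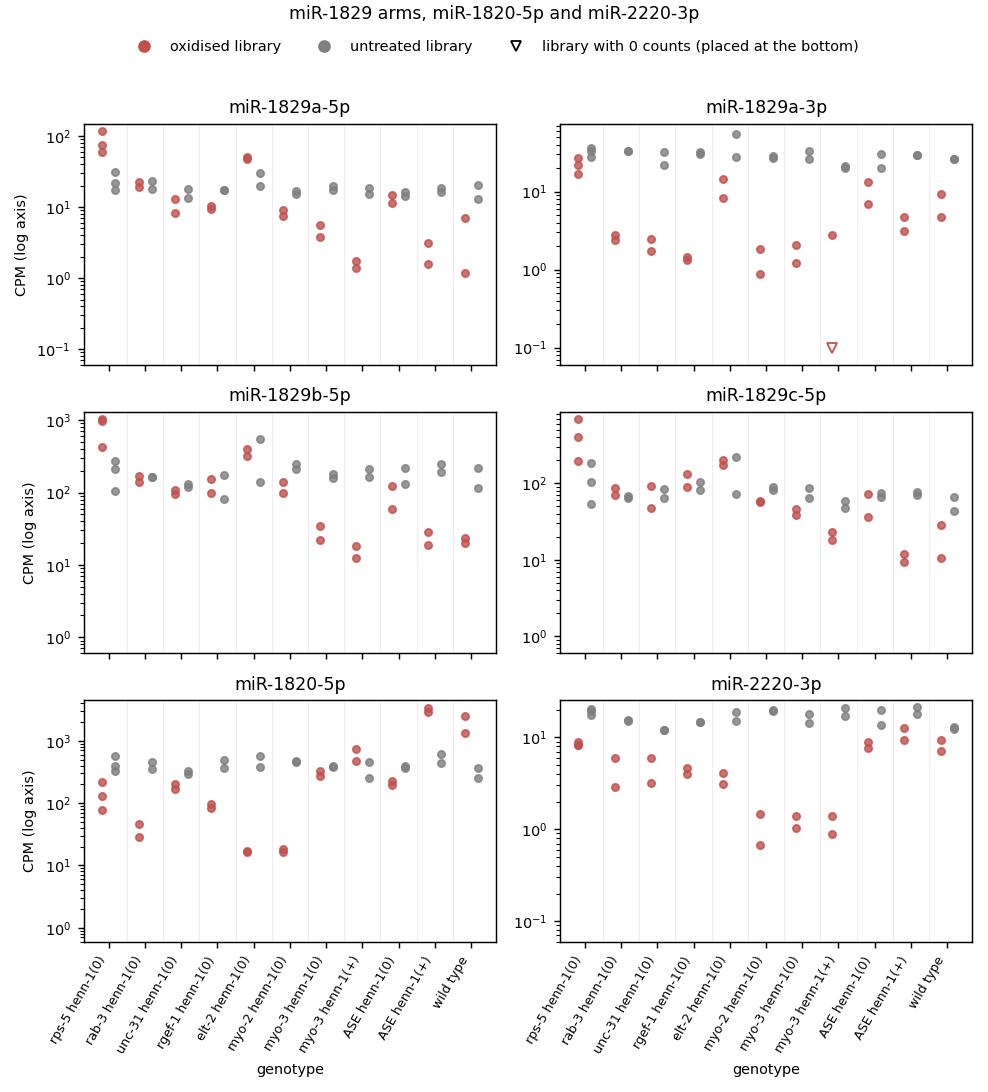
CPM on a log scale of 4 miR-1829 arms, miR-1820-5p and miR-2220-3p in every library, oxidised left of untreated within each genotype; triangles mark 0 counts. The miR-1829 5p arms stand higher after periodate in the rps-5 lines and lower in the 3 genotypes with henn-1, apart from miR-1829c-5p with myo-3, which was not called.

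The neuronal drivers asked which arms were protected in neurons. With rab-3, 12 of the 53 tested arms rose, 22.6% of them against 34.4% of all 395 arms, and 26 fell, 49.1% against 32.9%. Medians of the log2 change were -1.11 for these arms and 0.40 for all arms, or -1.11 and 0.40 with arms at 0 counts on a side set to their bounds. miR-1832b-5p had 0.340 and 0.327 CPM in the oxidised libraries, against 0 and 0 CPM in the untreated libraries (at least 7.89-fold higher, edgeR adjusted p = 0.000158). miR-1818-3p had 31.9 and 33.8 CPM in the oxidised libraries, against 2.07 and 3.30 CPM in the untreated libraries (log2 change 3.60 ± 0.49, edgeR adjusted p = 8.29e-07). miR-1830-3p had 22.6 and 23.3 CPM in the oxidised libraries, against 1.89 and 2.10 CPM in the untreated libraries (log2 change 3.52 ± 0.40, edgeR adjusted p = 2.67e-07). No untreated library reached an oxidised one for these arms, and miR-1830-5p rose with its partner (log2 change 3.07 ± 0.42, edgeR adjusted p = 9.98e-06). miR-2209b-3p had 0 and 0 CPM in the oxidised libraries, against 2.21 and 1.70 CPM in the untreated libraries (at least 34.0-fold lower, edgeR adjusted p = 9.59e-09). miR-2209a-3p had 0.0284 and 0 CPM in the oxidised libraries, against 1.57 and 1.30 CPM in the untreated libraries (75.3-fold lower with a 95% counting interval of 13.2 to 3005, edgeR adjusted p = 1.65e-06). miR-2210-3p had 0.227 and 0.109 CPM in the oxidised libraries, against 7.71 and 8.16 CPM in the untreated libraries (log2 change -5.39 ± 0.95, edgeR adjusted p = 1.74e-05). Each was low or absent in both oxidised libraries. The abundant miR-1820-5p had 28.5 and 46.0 CPM in the oxidised libraries, against 449 and 353 CPM in the untreated libraries (log2 change -3.43 ± 0.42, edgeR adjusted p = 2.63e-08), and miR-1817-5p (log2 change -3.40 ± 0.45) and miR-1828-5p (log2 change -1.75 ± 0.46) also fell. The calls of these arms stood whichever library was left out.

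With unc-31, 12 of the 53 tested arms rose, 22.6% of them against 31.4% of all 395 arms, and 19 fell, 35.8% against 28.1%. Their log2 changes had medians of -0.32 for these arms and 0.24 for all arms, or -0.32 and 0.17 with arms at 0 counts on a side set to their bounds. miR-1818-3p had 47.1 and 54.7 CPM in the oxidised libraries, against 0.965 and 1.34 CPM in the untreated libraries (log2 change 5.49 ± 0.55, edgeR adjusted p = 4.27e-09). miR-2216-5p had 2.08 and 3.20 CPM in the oxidised libraries, against 0.126 and 0.147 CPM in the untreated libraries (log2 change 4.07 ± 0.67, edgeR adjusted p = 7.64e-05). miR-1832b-3p had 1.14 and 0.986 CPM in the oxidised libraries, against 0.0851 and 0 CPM in the untreated libraries (17.8-fold higher with a 95% counting interval of 5.48 to 91.3, edgeR adjusted p = 0.00279). All were higher in both oxidised libraries. miR-2209b-3p had 0.0439 and 0 CPM in the oxidised libraries, against 1.79 and 2.18 CPM in the untreated libraries (46.8-fold lower with a 95% counting interval of 8.18 to 1869, edgeR adjusted p = 4.53e-06). miR-2210-5p had 0 and 0.493 CPM in the oxidised libraries, against 0.965 and 0.840 CPM in the untreated libraries (23.1-fold lower with a 95% counting interval of 3.94 to 934, edgeR adjusted p = 0.0146). miR-2217a-3p had 0.154 and 0.247 CPM in the oxidised libraries, against 2.58 and 3.15 CPM in the untreated libraries (log2 change -4.12 ± 0.64, edgeR adjusted p = 1.97e-06). For all 3 both oxidised libraries lay below both untreated ones. Without oxidised replicate 1, which leaves the shallow replicate 5 with 2028172 counts alone, 4 arms rose and 6 fell, and 21 of the 31 calls were lost, among them that of miR-1832b-3p (largest adjusted p = 0.198). miR-2210-5p lost its call without oxidised replicate 1 (largest adjusted p = 0.739), and its log2 change was then -0.88, so that the ratio above rests on that library.

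With rgef-1, 15 of the 53 tested arms rose, 28.3% of them against 35.4% of all 395 arms, and 22 fell, 41.5% against 30.4%. On the log2 scale the medians were -0.35 for these arms and 0.34 for all arms, or 0.00 and 0.28 with arms at 0 counts on a side set to their bounds. miR-1818-3p had 46.6 and 46.4 CPM in the oxidised libraries, against 1.93 and 1.42 CPM in the untreated libraries (log2 change 4.79 ± 0.53, edgeR adjusted p = 3.53e-09). miR-1833-5p had 0.965 and 1.94 CPM in the oxidised libraries, against 0.0624 and 0.0460 CPM in the untreated libraries (26.5-fold higher with a 95% counting interval of 6.47 to 233, edgeR adjusted p = 0.000699). miR-1832b-5p had 0.482 and 1.94 CPM in the oxidised libraries, against 0.0624 and 0.0460 CPM in the untreated libraries (21.4-fold higher with a 95% counting interval of 5.08 to 191, edgeR adjusted p = 0.000181). These arms were near or at 0 without periodate and higher in both oxidised libraries, and miR-1833-3p rose beside its partner (log2 change 3.42 ± 0.42, edgeR adjusted p = 5.08e-07). miR-2217b-2-3p had 0.0301 and 0 CPM in the oxidised libraries, against 0.765 and 1.32 CPM in the untreated libraries (at least 5.43-fold lower, edgeR adjusted p = 0.000586), and its fractional oxidised count rounded to 0. miR-1819-3p had 0 and 0.149 CPM in the oxidised libraries, against 4.18 and 6.16 CPM in the untreated libraries (79.8-fold lower with a 95% counting interval of 14.2 to 3167, edgeR adjusted p = 2.76e-06). miR-1823-5p had 0 and 0 CPM in the oxidised libraries, against 0.499 and 0.368 CPM in the untreated libraries (at least 2.12-fold lower, edgeR adjusted p = 0.0111). Both oxidised libraries lay below both untreated ones for all 3. Of these arms, miR-1823-5p lost its call without either oxidised library (largest adjusted p = 0.0745), and 9 of the 37 calls with rgef-1 were lost without 1 library or another. Both arms of miR-1824 rose with rgef-1. miR-1824-3p had 2.41 and 4.33 CPM in the oxidised libraries, against 0 and 0.322 CPM in the untreated libraries (log2 change 4.16 ± 0.86, edgeR adjusted p = 0.000337). miR-1824-5p had 261 and 256 CPM in the oxidised libraries, against 74.5 and 69.8 CPM in the untreated libraries (log2 change 1.84 ± 0.33, edgeR adjusted p = 0.000723). Neither arm overlapped between oxidised and untreated libraries. miR-1824-5p rose with rab-3 too (log2 change 1.62 ± 0.33, edgeR adjusted p = 0.0106), a call lost without untreated replicate 18.4, with TMM scaled to an untreated wild type library (largest adjusted p = 0.0875). With unc-31 miR-1824-5p had 58.6 and 68.0 CPM in the oxidised libraries, against 30.7 and 18.6 CPM in the untreated libraries, which did not pass (edgeR adjusted p = 0.21), while its partner miR-1824-3p did (log2 change 3.69 ± 0.90, edgeR adjusted p = 0.00304), a call lost without untreated replicate 1 (largest adjusted p = 0.0683).

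The mean of the 3 neuronal effects minus the rps-5 effect was higher for 8 of the 53 arms, 15.1% of them against 27.1% of all arms, and lower for 22, 41.5% against 27.8%. Both arms of miR-1824 were higher with the neuronal drivers, miR-1824-5p by 2.97 ± 0.33 (edgeR adjusted p = 1.66e-07) and miR-1824-3p with an edgeR adjusted p of 9.43e-05 and no size, since it had 3 counts in oxidised rps-5 worms. Both arms of miR-1818 were higher too, miR-1818-5p by 2.63 ± 0.56 (edgeR adjusted p = 0.000722) and miR-1818-3p by 3.11 ± 0.48 (edgeR adjusted p = 3.86e-06). So were miR-1830-3p (2.35 ± 0.39), miR-1830-5p (1.81 ± 0.44), miR-1833-3p (1.94 ± 0.42) and miR-1832b-5p (2.21 ± 0.67). miR-2209b-3p (-4.91 ± 0.72, edgeR adjusted p = 1.46e-06), miR-2212-3p (-4.36 ± 0.94, edgeR adjusted p = 0.000252) and miR-1829a-3p (-3.42 ± 0.42, edgeR adjusted p = 4.24e-08) were lowest, although the first was at 0 counts in oxidised rab-3 worms and the second at 1 count with each driver, so that the fit does not fix their sizes. All 6 arms of the miR-1829 family were lower, though miR-1829b-3p and miR-1829c-3p share their reads and are not separate measurements. All 4 arms of the neighbouring miR-1819 and miR-2212 hairpins were lower too. Those 4 arms fell with each neuronal driver, for example miR-1819-3p with rab-3 (log2 change -4.62 ± 0.72). With unc-31 all 4 lost their calls without oxidised replicate 1 (largest adjusted p = 0.84, for miR-1819-3p, whose log2 change was then -0.22), and miR-2212-3p lost its call with rgef-1 without untreated replicate 14C (largest adjusted p = 0.0681). Of the 8 higher arms, the call lost was that of miR-1832b-5p without rps-5 untreated replicate 16.1 (largest adjusted p = 0.0531).

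**Figure D5:**
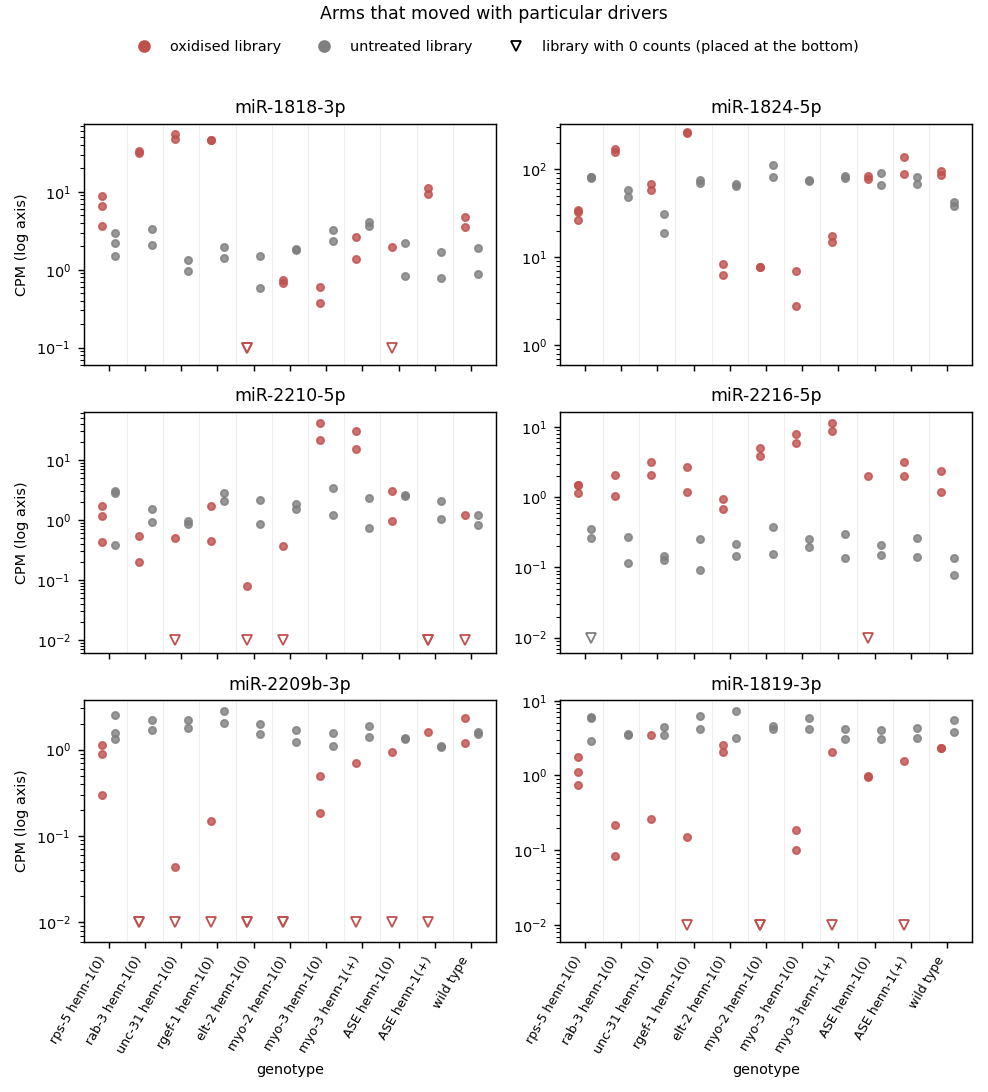
CPM on a log scale of miR-1818-3p, miR-1824-5p, miR-2210-5p, miR-2216-5p, miR-2209b-3p and miR-1819-3p in every library, oxidised left of untreated within each genotype; triangles mark 0 counts. miR-1818-3p is high after periodate with the 3 neuronal drivers and at 0 with elt-2, and miR-2210-5p is high only with myo-3.

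With the intestinal driver elt-2, 13 of the 53 tested arms rose, 24.5% of them against 28.1% of all 395 arms, and 18 fell, 34.0% against 39.0%. The median log2 change was -1.22 for these arms and -1.40 for all arms, or -0.82 and -0.90 with arms at 0 counts on a side set to their bounds. miR-1830-3p had 32.3 and 25.8 CPM in the oxidised libraries, against 3.13 and 1.38 CPM in the untreated libraries (log2 change 3.66 ± 0.41, edgeR adjusted p = 3.72e-09). miR-1830-5p had 18.2 and 22.2 CPM in the oxidised libraries, against 2.98 and 1.23 CPM in the untreated libraries (log2 change 3.23 ± 0.43, edgeR adjusted p = 3.64e-07). miR-2220-5p had 0.710 and 0.561 CPM in the oxidised libraries, against 0.101 and 0.0726 CPM in the untreated libraries (7.34-fold higher with a 95% counting interval of 2.02 to 40.2, edgeR adjusted p = 0.0209). The arms of miR-1830, from an intron of paic-1, were higher in both oxidised libraries. Their effects exceeded those in rps-5 lines by 2.33 ± 0.50 (edgeR adjusted p = 0.000195) for miR-1830-3p and 1.99 ± 0.55 (edgeR adjusted p = 0.00233) for miR-1830-5p. miR-2212-5p was called higher with elt-2 and in no other genotype. miR-2212-5p had 17.7 and 14.3 CPM in the oxidised libraries, against 4.50 and 3.49 CPM in the untreated libraries (log2 change 2.00 ± 0.43, edgeR adjusted p = 0.000195). It fell with rab-3 (log2 change -1.89 ± 0.45), unc-31 (-1.52 ± 0.53) and rgef-1 (-2.06 ± 0.51), and its difference between elt-2 and rps-5 did not pass (0.95 ± 0.54, edgeR adjusted p = 0.135). miR-2220-3p, the partner of miR-2220-5p, fell (log2 change -2.25 ± 0.34, edgeR adjusted p = 0.000191), and the arms of miR-1829a also moved apart, with log2 changes of 0.97 ± 0.36 for miR-1829a-5p and -1.84 ± 0.41 for miR-1829a-3p. The 13 rises became 8 without untreated replicate 8.1, and with unc-31 miR-2212-5p lost its call without oxidised replicate 1 or untreated replicate 1 (largest adjusted p = 0.434). With elt-2 miR-2220-5p lost its call without oxidised replicate 3A or either untreated library (largest adjusted p = 0.111). miR-1829a-5p lost its call without either oxidised library or untreated replicate 8.1, in a fit of this genotype alone (largest adjusted p = 0.161). miR-1829a-3p lost its call without oxidised replicate 8.1 or untreated replicate 3A, with no count filter and in a fit of this genotype alone (largest adjusted p = 0.116).

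The falls with elt-2 included miR-1818-3p, which rose with each of the 3 neuronal drivers. miR-1818-3p had 0 and 0 CPM in the oxidised libraries, against 1.52 and 0.581 CPM in the untreated libraries (at least 7.48-fold lower, edgeR adjusted p = 0.000149). miR-2209a-3p had 0 and 0 CPM in the oxidised libraries, against 3.94 and 1.16 CPM in the untreated libraries (at least 18.5-fold lower, edgeR adjusted p = 1.85e-05). miR-2209b-3p had 0 and 0 CPM in the oxidised libraries, against 1.97 and 1.52 CPM in the untreated libraries (at least 11.8-fold lower, edgeR adjusted p = 8.21e-06). No oxidised library had a count of these 3 arms. Abundant arms fell as well: miR-1820-5p had 16.3 and 16.8 CPM in the oxidised libraries, against 564 and 373 CPM in the untreated libraries (log2 change -4.82 ± 0.45, edgeR adjusted p = 2.60e-09). miR-1818-5p had 4.81 and 5.61 CPM in the oxidised libraries, against 129 and 75.4 CPM in the untreated libraries (log2 change -4.30 ± 0.64, edgeR adjusted p = 1.55e-05). miR-1824-5p had 6.31 and 8.42 CPM in the oxidised libraries, against 64.7 and 67.8 CPM in the untreated libraries (log2 change -3.17 ± 0.36, edgeR adjusted p = 3.69e-07). All 3 were lower in both oxidised libraries. Against rps-5, the elt-2 effect was higher for 2 of the 53 arms, 3.77% of them against 15.4% of all arms, and lower for 10, 18.9% against 28.4%. Lower arms with reads on both sides were miR-1823-3p (-5.82 ± 0.54, edgeR adjusted p = 1.30e-08), miR-2215-3p (-4.33 ± 0.68, edgeR adjusted p = 0.000328) and miR-1820-5p (-3.23 ± 0.51, edgeR adjusted p = 0.00225), and miR-1818-3p, miR-2209a-3p and miR-2213-5p were lower with edgeR adjusted p of 4.35e-05, 0.00837 and 0.00947 and no size, being at 0 counts in oxidised elt-2 worms. The 10 became 5 without elt-2 oxidised replicate 3A, and miR-2209a-3p lost its call without elt-2 oxidised replicate 3A (largest adjusted p = 0.117). miR-2213-5p lost its call without elt-2 oxidised replicate 3A (largest adjusted p = 0.113).

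With the pharyngeal muscle driver myo-2, 9 of the 53 tested arms rose, 17.0% of them against 20.5% of all 395 arms, and 10 fell, 18.9% against 28.1%. Medians of the log2 change were -2.55 for these arms and -1.61 for all arms, or -0.95 and -0.84 with arms at 0 counts on a side set to their bounds. miR-1832b-5p had 2.21 and 3.56 CPM in the oxidised libraries, against 0.0937 and 0.154 CPM in the untreated libraries (24.1-fold higher with a 95% counting interval of 7.24 to 126, edgeR adjusted p = 2.96e-06). miR-2219-5p had 2.95 and 2.44 CPM in the oxidised libraries, against 0 and 0.231 CPM in the untreated libraries (20.8-fold higher with a 95% counting interval of 6.12 to 109.8, edgeR adjusted p = 7.46e-06). miR-1830-3p had 24.7 and 32.7 CPM in the oxidised libraries, against 1.59 and 1.69 CPM in the untreated libraries (log2 change 4.12 ± 0.43, edgeR adjusted p = 5.70e-10). Untreated worms held few or no counts of the first 2, and both oxidised libraries were higher for all 3. miR-1830-5p rose alike (log2 change 4.02 ± 0.51, edgeR adjusted p = 9.02e-08), and both arms exceeded their rps-5 effects, miR-1830-3p by 2.79 ± 0.52 (edgeR adjusted p = 3.35e-05) and miR-1830-5p by 2.78 ± 0.62 (edgeR adjusted p = 0.000304). miR-2210-3p had 0 and 0 CPM in the oxidised libraries, against 6.28 and 7.91 CPM in the untreated libraries (at least 17.3-fold lower, edgeR adjusted p = 0.0118). miR-1819-3p had 0 and 0 CPM in the oxidised libraries, against 4.22 and 4.61 CPM in the untreated libraries (at least 10.7-fold lower, edgeR adjusted p = 0.00118). miR-2209b-3p had 0 and 0 CPM in the oxidised libraries, against 1.69 and 1.23 CPM in the untreated libraries (at least 3.45-fold lower, edgeR adjusted p = 0.00917). All 3 were without a count in the oxidised libraries, and miR-2210-3p lost its call without either oxidised library (largest adjusted p = 0.0871). miR-2209b-3p lost its call without either oxidised library (largest adjusted p = 0.0921). miR-1820-5p had 16.4 and 18.4 CPM in the oxidised libraries, against 456 and 477 CPM in the untreated libraries (log2 change -4.75 ± 0.46, edgeR adjusted p = 4.53e-08). miR-1824-5p had 7.74 and 7.78 CPM in the oxidised libraries, against 81.3 and 110.5 CPM in the untreated libraries (log2 change -3.63 ± 0.37, edgeR adjusted p = 9.72e-07). Both abundant arms were lower in both oxidised libraries.

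Against rps-5, the myo-2 effect was higher for 4 of the 53 arms, 7.55% of them against 9.87% of all arms, and lower for 7, 13.2% against 18.2%. Beside both arms of miR-1830 the higher ones were miR-2219-5p (2.47 ± 0.99, edgeR adjusted p = 0.0356) and miR-1832b-5p (2.29 ± 0.93, edgeR adjusted p = 0.0383). The lowest were miR-1823-3p (-5.02 ± 0.58, edgeR adjusted p = 1.71e-05), miR-1820-3p (-4.72 ± 0.53, edgeR adjusted p = 0.000106) and miR-1832a-3p (-4.53 ± 0.96, edgeR adjusted p = 0.0356), of which less than 1 fractional count was left in oxidised myo-2 worms. miR-1823-3p had 2.21 and 0.889 CPM in the oxidised libraries, against 25.5 and 20.2 CPM in the untreated libraries, without overlap. The 4 became 2 without myo-2 oxidised replicate 30 or untreated replicate 7, or without an rps-5 oxidised replicate 16.1 or untreated replicate 22.3, and the 7 became 4 without myo-2 oxidised replicate 7 and 3 without myo-2 untreated replicate 30. miR-2219-5p lost its call without either myo-2 oxidised library or myo-2 untreated replicate 7 or rps-5 oxidised replicate 16.1 or rps-5 untreated replicate 16.1 or 22.3 (largest adjusted p = 0.188). miR-1832b-5p lost its call without myo-2 oxidised replicate 30 or either myo-2 untreated library or rps-5 oxidised replicate 16.1 or 22.3 or rps-5 untreated replicate 16.1 or 22.3, with the replicate block (largest adjusted p = 0.184). miR-1832a-3p lost its call without myo-2 oxidised replicate 7 or myo-2 untreated replicate 30 or rps-5 oxidised replicate 22.3 or rps-5 untreated replicate 16.1, in DESeq2 and with the replicate block (largest adjusted p = 0.211).

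With the body wall muscle driver myo-3 in henn-1(0) worms, 12 of the 53 tested arms rose, 22.6% of them against 18.5% of all 395 arms, and 5 fell, 9.43% against 29.9%. Their log2 changes had medians of -0.96 for these arms and -1.77 for all arms, or -0.89 and -1.26 with arms at 0 counts on a side set to their bounds. miR-2216-5p had 7.84 and 5.82 CPM in the oxidised libraries, against 0.256 and 0.197 CPM in the untreated libraries (log2 change 4.79 ± 0.58, edgeR adjusted p = 1.37e-08). miR-2216-3p had 12.4 and 13.9 CPM in the oxidised libraries, against 0.681 and 0.715 CPM in the untreated libraries (log2 change 4.23 ± 0.51, edgeR adjusted p = 2.55e-08). miR-2210-5p had 21.6 and 41.1 CPM in the oxidised libraries, against 1.19 and 3.43 CPM in the untreated libraries (log2 change 3.79 ± 0.72, edgeR adjusted p = 4.11e-05). Both arms of miR-2216, from an intron of gmps-1, and miR-2210-5p were higher in both oxidised libraries. miR-2210-5p was called higher in the 2 myo-3 genotypes and in no other, and with henn-1 intact miR-2210-5p had 29.9 and 15.2 CPM in the oxidised libraries, against 2.33 and 0.736 CPM in the untreated libraries (log2 change 3.87 ± 0.78, edgeR adjusted p = 0.000148). miR-2210-3p followed it (log2 change 2.26 ± 0.74, edgeR adjusted p = 0.00829). miR-1819-3p had 0.0995 and 0.187 CPM in the oxidised libraries, against 4.17 and 5.79 CPM in the untreated libraries (33.1-fold lower with a 95% counting interval of 11.1 to 162, edgeR adjusted p = 0.000954). miR-1829a-3p had 2.09 and 1.21 CPM in the oxidised libraries, against 26.4 and 33.6 CPM in the untreated libraries (log2 change -4.18 ± 0.47, edgeR adjusted p = 1.70e-06). miR-1824-5p had 6.96 and 2.80 CPM in the oxidised libraries, against 72.7 and 75.9 CPM in the untreated libraries (log2 change -3.93 ± 0.37, edgeR adjusted p = 1.55e-06). The last 2 are among the most abundant arms and were lower in both oxidised libraries. Of these arms, miR-2210-3p lost its call without oxidised replicate 11.16 or untreated replicate 2.2 (largest adjusted p = 0.127), and 5 of the 17 calls of this genotype were lost without 1 library or another.

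Against rps-5, the myo-3 effect was higher for 7 of the 53 arms, 13.2% of them against 12.7% of all arms, and lower for 5, 9.43% against 21.0%. miR-2210-5p (4.68 ± 0.94, edgeR adjusted p = 7.91e-05), miR-2210-3p (3.98 ± 0.99, edgeR adjusted p = 0.00101) and miR-2216-3p (2.52 ± 0.64, edgeR adjusted p = 0.00106) were highest. miR-2210-5p had 0.427, 1.16 and 1.70 CPM in the oxidised libraries, against 0.378, 2.98 and 2.76 CPM in the untreated libraries of the rps-5 lines, where the groups overlapped. miR-1823-3p (-4.81 ± 0.53, edgeR adjusted p = 8.82e-05), miR-1829b-5p (-4.64 ± 0.68, edgeR adjusted p = 0.00169) and miR-1818-3p (-4.05 ± 0.71, edgeR adjusted p = 0.0249) were lowest. miR-1829b-5p had 34.4 and 22.1 CPM in the oxidised libraries, against 182 and 157 CPM in the untreated libraries of myo-3 henn-1(0) worms, which did not pass on its own (edgeR adjusted p = 0.128) but was called lower with the replicate block (log2 change -2.62, edgeR adjusted p = 0.0273). The 7 became 4 without either myo-3 untreated library or 1 of the rps-5 untreated replicates 16.1, and the 5 became 3 without myo-3 oxidised replicate 11.16. Of the named arms, the call lost was that of miR-1818-3p without either myo-3 oxidised library or myo-3 untreated replicate 2.2 or rps-5 oxidised replicate 22.3 or rps-5 untreated replicate 16.1 (largest adjusted p = 0.0915).

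With ASE:Ath-HEN1 in henn-1(0) worms, 6 of the 53 tested arms rose, 11.3% of them against 17.5% of all 395 arms, and 3 fell, 5.66% against 8.35%. On the log2 scale the medians were -0.28 for these arms and 0.00 for all arms, or 0.00 and 0.00 with arms at 0 counts on a side set to their bounds. miR-1833-5p had 4.95 and 4.74 CPM in the oxidised libraries, against 0.226 and 0.0705 CPM in the untreated libraries (log2 change 4.97 ± 1.06, edgeR adjusted p = 0.000802). miR-2218a-3p had 7.91 and 3.79 CPM in the oxidised libraries, against 0.0754 and 0.705 CPM in the untreated libraries (log2 change 3.85 ± 0.73, edgeR adjusted p = 0.000844). miR-1833-3p had 4.95 and 5.68 CPM in the oxidised libraries, against 0.453 and 0.282 CPM in the untreated libraries (log2 change 3.83 ± 0.56, edgeR adjusted p = 6.55e-05). All 3 were higher in both oxidised libraries, each of which held few counts of them. miR-1830-3p (log2 change 3.21 ± 0.45, edgeR adjusted p = 4.85e-05) and miR-1830-5p (log2 change 3.72 ± 0.57, edgeR adjusted p = 0.000132) rose here too. miR-1829a-3p had 6.92 and 13.3 CPM in the oxidised libraries, against 30.3 and 20.2 CPM in the untreated libraries (log2 change -1.32 ± 0.46, edgeR adjusted p = 0.0266). miR-2220-3p had 8.90 and 7.58 CPM in the oxidised libraries, against 13.5 and 19.9 CPM in the untreated libraries (log2 change -1.02 ± 0.38, edgeR adjusted p = 0.039). miR-1820-3p had 17.8 and 11.4 CPM in the oxidised libraries, against 28.1 and 28.8 CPM in the untreated libraries (log2 change -0.97 ± 0.37, edgeR adjusted p = 0.0437). Both oxidised libraries were lower than both untreated ones for each of these arms. The 3 falls became 1 without any 1 of the 4 libraries, and miR-2218a-3p lost its call without oxidised replicate 5 (largest adjusted p = 0.0768). miR-1829a-3p lost its call without oxidised replicate 5 or untreated replicate 5 (largest adjusted p = 0.288). miR-2220-3p lost its call without either oxidised library or untreated replicate 9, with no count filter, in a fit of this genotype alone, with the replicate block (largest adjusted p = 0.261). miR-1820-3p lost its call without oxidised replicate 9 or either untreated library, with no count filter and in a fit of this genotype alone (largest adjusted p = 0.365).

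Against rps-5, the ASE effect was higher for 5 of the 53 arms, 9.43% of them against 17.2% of all arms, and lower for 4, 7.55% against 7.09%. Highest were miR-1818-5p (3.01 ± 0.73, edgeR adjusted p = 0.00659), miR-2217a-3p (2.94 ± 0.80, edgeR adjusted p = 0.0174) and miR-1833-3p (2.63 ± 0.65, edgeR adjusted p = 0.0126). Lowest were miR-1829b-5p (-2.99 ± 0.67, edgeR adjusted p = 0.00138), miR-2215-3p (-2.84 ± 0.96, edgeR adjusted p = 0.0489) and miR-1829c-5p (-2.29 ± 0.67, edgeR adjusted p = 0.0162). The oxidised ASE libraries held 0 and 2 counts of miR-2215-3p, so the fit does not fix its size. miR-1829b-5p had 122 and 59.7 CPM in the oxidised libraries, against 216 and 130.4 CPM in the untreated libraries of ASE henn-1(0) worms, where the groups did not overlap and it was not called, except with the replicate block (log2 change -0.97, edgeR adjusted p = 0.0426). The 5 became 0 without ASE oxidised replicate 9 and 3 without ASE untreated replicate 5, and the 4 became 2 without 1 of the rps-5 oxidised replicates 16.1. miR-1818-5p lost its call without ASE oxidised replicate 9 or ASE untreated replicate 9 (largest adjusted p = 0.0762). miR-2217a-3p lost its call without ASE oxidised replicate 9 (largest adjusted p = 0.23). miR-1833-3p lost its call without ASE oxidised replicate 9 or ASE untreated replicate 9 (largest adjusted p = 0.0654). miR-2215-3p lost its call without ASE oxidised replicate 5 or ASE untreated replicate 5 or rps-5 oxidised replicate 16.1 or 22.3 or rps-5 untreated replicate 16.1 or 22.3, in DESeq2, with a minimum count of 30, with no count filter, with the replicate block (largest adjusted p = 0.264). miR-1829c-5p lost its call without ASE oxidised replicate 9 or rps-5 oxidised replicate 16.1 (largest adjusted p = 0.151).

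Counts were also taken over groups of arms set by place or name. Of the 18 tested arms from same-strand introns, 5 to 9 rose and 1 to 7 fell in a genotype. The 18 include miR-1829b-3p and miR-1829c-3p, which share their reads and fell together with the 3 neuronal drivers, so their falls are not separate. In the rps-5 lines 9 rose and 1 fell, 50.0% and 5.56% of them against 23.8% and 21.0% of all arms, with a median log2 change of 1.46 against 0.77 for all arms. With elt-2, 8 rose and 1 fell, 44.4% and 5.56% against 28.1% and 39.0% of all arms. For the others, brackets give the shares of intronic arms that rose and fell, against those of all arms. Rises and falls were closer in number with rab-3, at 7 and 6 (38.9%, 33.3% against 34.4%, 32.9%). They were 7 and 5 with unc-31 (38.9%, 27.8% against 31.4%, 28.1%) and 8 and 7 with rgef-1 (44.4%, 38.9% against 35.4%, 30.4%). They were 6 and 4 in myo-3 henn-1(+) (33.3%, 22.2% against 27.3%, 26.1%) and 5 and 5 in ASE henn-1(+) (27.8%, 27.8% against 23.5%, 22.3%). Wild type worms had 5 and 4 (27.8%, 22.2% against 20.8%, 21.0%). Numbers lay further apart with myo-2, at 6 and 2 (33.3%, 11.1% against 20.5%, 28.1%). The same held for myo-3 henn-1(0), 6 and 1 (33.3%, 5.56% against 18.5%, 29.9%), and ASE henn-1(0), 5 and 1 (27.8%, 5.56% against 17.5%, 8.35%). Of the 29 tested arms from hairpins between protein-coding genes, 0 to 6 rose and 1 to 18 fell in a genotype. In the rps-5 lines 4 rose and 10 fell (13.8%, 34.5% against 23.8%, 21.0% of all arms), with a median of 0.26. With rab-3 3 rose and 18 fell (10.3%, 62.1% against 34.4%, 32.9%), and with elt-2 4 rose and 14 fell (13.8%, 48.3% against 28.1%, 39.0%). In ASE henn-1(+) worms 5 rose and 1 fell (17.2%, 3.45% against 23.5%, 22.3%). Wild type worms had 6 rises and 3 falls (20.7%, 10.3% against 20.8%, 21.0%). Whether the groups differ was not tested.

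Of the 7 tested arms of the miR-2208 and miR-2209 cluster, 3 fell in the rps-5 lines, 5 with rab-3, 3 with unc-31, 3 with rgef-1, 3 with elt-2, 1 with myo-2 and 1 in ASE henn-1(+) worms. The 5 with rab-3 were 71.4% of them, against 32.9% of all arms, and the 3 in each of the other 4 genotypes were 42.9%, against 21.0% in the rps-5 lines, 28.1% with unc-31, 30.4% with rgef-1 and 39.0% with elt-2. The only rise, of miR-2208b-3p with myo-2, was lost without oxidised replicate 7 or untreated replicate 30 and in a fit of this genotype alone (largest adjusted p = 0.485). In the rps-5 lines miR-2209b-3p lost its call without 1 of the oxidised or untreated replicates 16.1 (largest adjusted p = 0.112) and miR-2209a-3p without 1 of the oxidised replicates 16.1 or untreated replicate 22.3 (largest adjusted p = 0.133), and both in a fit of this genotype alone. With rab-3 the falls of miR-2208a-5p (largest adjusted p = 0.0706) and miR-2208b-5p (largest adjusted p = 0.257) were lost without oxidised replicate 14, and that of miR-2208b-5p also without untreated replicate 14. With unc-31 those of miR-2209a-3p (largest adjusted p = 0.144) and miR-2209c-3p (log2 change then -0.72, largest adjusted p = 0.495) were lost without oxidised replicate 1, and with rgef-1 that of miR-2209a-3p without untreated replicate 14C (largest adjusted p = 0.103). Both tested miR-2217 arms, miR-2217a-3p and miR-2217b-2-3p, fell in the rps-5 lines, with the 3 neuronal drivers and with elt-2. Of all arms, 21.0% fell in the rps-5 lines, 32.9% with rab-3, 28.1% with unc-31, 30.4% with rgef-1 and 39.0% with elt-2. Each of the miR-2217 arms had fractional counts in 27 libraries, so they may share reads and their falls may not be independent. Of these calls, miR-2217b-2-3p lost that with rab-3 without oxidised replicate 14 (largest adjusted p = 0.0639), that with unc-31 without oxidised replicate 1 (log2 change then -0.39, largest adjusted p = 0.854) and that with elt-2 without oxidised replicate 3A (largest adjusted p = 0.14). miR-2217a-3p lost its call with elt-2 without oxidised replicate 3A or untreated replicate 8.1, with no count filter and in a fit of this genotype alone (largest adjusted p = 0.578).

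Calls of both arms were compared in the 22 hairpins with both arms tested. All hairpins in the data were not counted in this way, so these numbers do not set the 22 apart. Arms were called in opposite directions for miR-1818 in the rps-5 lines and for miR-1829a and miR-2220 with elt-2, and in no other of the 22 hairpins or genotypes. In the rps-5 lines only 1 arm was called in 13 hairpins, against 3 with both called the same way. These counts were 7 against 4 in wild type, 12 against 10 with rab-3 and 8 against 5 with myo-2. In myo-3 worms they were 9 against 5 with henn-1 and 9 against 4 without it. In ASE worms they were 6 against 4 with henn-1 and 5 against 2 without it. Both arms called the same way were commoner with unc-31 (6 against 10), rgef-1 (7 against 12) and elt-2 (5 against 8).

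The 16 arms that were not tested included 6 of the 7 miR-2217 and miR-2218 copies with letters b, and the 5p arms of miR-2209a, miR-2209b and miR-2209c. The highest mean was 0.380 CPM, for miR-2217b-3-3p, which reached at most 0.739 CPM in an untreated library. It cannot be told apart from miR-2217b-1-3p and miR-2217b-4-3p, which share its reads and averaged 0.379 CPM. The scarcest with any read were miR-2217a-5p and miR-1817-3p, with 1.5 and 2 counts over all 46 libraries. No comparison above uses these 16 arms.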

How the data were processed

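Small RNA of 18 to 30 nt was sequenced from whole first-stage larvae, from at least 20 ug of total RNA per the labels' protocols. Each library came as 1 table by the authors of expected counts for mature arms, 20 to 51 of which were more than 1e-06 from a whole number. Per the submitters' processing notes, cutadapt 1.2.1 and HTSeq 0.6.1p1 were used with genome build WBcel235. An aligner, or a rule for reads shared between copies, was not given in the sources used here. Shared reads can move counts between copies of a hairpin. The 46 tables matched 46 libraries in 22 groups of genotype and treatment.

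The tests had been planned for whole counts. The deposited expected counts, rounded to integers, were fitted with edgeR 4.0.16 (with limma 3.58.1, in R 4.3.3), by quasi-likelihood in 1 model over all 22 groups, after keeping 395 worm arms with edgeR's minimum count of 10. There were 19 comparisons: oxidised against untreated in 11 genotypes, 7 differences between such effects, and untreated libraries among genotypes. An arm was called at an adjusted p under 0.05 (Benjamini-Hochberg over the 395 arms) with 1 sign under total-count, TMM and RLE scaling. Differences from rps-5 share the rps-5 libraries. DESeq2 1.42.0, other filters, fewer libraries and a block for the strain were alternatives. Samples of 1 strain are grouped by the strain name in the labels, which does not pair the wild type replicates, all of strain N2. In transgenic strains the deviations of oxidised and untreated libraries from their group means correlated over 395 arms at 0.0174 to 0.768. TMM factors were by default relative to an oxidised myo-3 henn-1(+) library. With an untreated wild type library instead, the median change of all arms by TMM was -0.50 in place of -2.20 in wild type worms and -0.44 in place of -1.83 in ASE henn-1(+) worms.

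CPM are counts per 1000000 counts of a table. Library totals ran from 425711 to 43302426 counts. Counting intervals are 95% and exact, and with the floors of 3 counts cover counting error only, since reads carry no molecular identifiers. The scripts were tested on simulated data. Arms given with values were the 6 most abundant and, for each genotype, the 3 arms with at least 10 counts that rose most and the 3 that fell most. For each difference they were the 3 highest and the 3 lowest called arms, whatever their counts. The other arm of their hairpins was given where it was tested. Other arms were named after their values were seen. The arms, lists and tests were chosen with earlier results of these data known. Hairpin places come from the Ensembl annotation of build WBcel235.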

Additional observations from a re-analysis of the deposited data

Results flagged for a closer look

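The differences between oxidation effects that passed under all 3 scalings are given here for the arms with the largest values, as log2 changes of the first genotype minus those of the second, without explanation. Neuronal drivers minus rps-5 gave 5.57 for miR-1824-3p, 3.11 for miR-1818-3p, 2.97 for miR-1824-5p, -4.91 for miR-2209b-3p, -4.36 for miR-2212-3p and -3.42 for miR-1829a-3p. Here miR-1824-3p had 3 counts in oxidised rps-5 worms, and miR-2209b-3p and miR-2212-3p had 0 or 1 count in the oxidised worms of each neuronal driver, so these 3 values give a direction and no size. The elt-2 driver minus rps-5 gave 2.33 for miR-1830-3p and 1.99 for miR-1830-5p. It also gave -8.56 for miR-1818-3p, -7.01 for miR-2209a-3p and -6.78 for miR-2213-5p, all at 0 counts in oxidised elt-2 worms and so without a size.

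The myo-2 driver minus rps-5 gave 2.79 for miR-1830-3p, 2.78 for miR-1830-5p, 2.47 for miR-2219-5p, -5.02 for miR-1823-3p, -4.72 for miR-1820-3p and -4.53 for miR-1832a-3p, the last of these with less than 1 count in oxidised myo-2 worms. The myo-3 driver minus rps-5 gave 4.68 for miR-2210-5p, 3.98 for miR-2210-3p, 2.52 for miR-2216-3p, -4.81 for miR-1823-3p, -4.64 for miR-1829b-5p and -4.05 for miR-1818-3p. ASE minus rps-5 gave 3.01 for miR-1818-5p, 2.94 for miR-2217a-3p, 2.63 for miR-1833-3p, -2.99 for miR-1829b-5p, -2.84 for miR-2215-3p and -2.29 for miR-1829c-5p. Of these, miR-2215-3p had 0 and 2 counts in the oxidised ASE libraries, so its value gives a direction and no size.

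Between henn-1(0) and henn-1(+) worms of the myo-3 driver the differences were -6.52 for miR-2215-5p, -4.04 for miR-1818-5p and -3.38 for miR-1833-3p. For ASE they were 9.37 for miR-1832a-5p, 4.08 for miR-1830-5p, 2.79 for miR-1829a-5p, -10.15 for miR-2207-5p, -9.63 for miR-1832b-5p and -7.41 for miR-2215-5p. Of these, miR-1832a-5p was at 0 counts in oxidised henn-1(+) worms and miR-2207-5p and miR-1832b-5p were at 0 counts in oxidised henn-1(0) worms, so their values give no size. For ASE, miR-2215-5p had 1 and 2 counts in the oxidised henn-1(0) libraries, so its -7.41 gives a direction and no size. In the oxidised henn-1(+) libraries of this driver miR-1830-5p had 0 and 2 counts and miR-1829a-5p 2 and 2. The same holds for their values. The libraries whose absence ended such calls are named with each comparison above.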

How the results depend on the processing

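Every count of arms that rose or fell was recomputed with another scaling, filter, set of libraries or tool, 1 choice at a time. Over the 104 pairs of an arm named by rule, mostly for its large change, and a comparison, other settings gave 885 values, of which 863 kept the call, 22 lost it and 0 turned its direction, and leaving out 1 library gave 686 values, of which 599 kept the call, 87 lost it and 0 turned its direction. Counts moved by more than 1.5 times as follows. With scaling by total counts alone, the number of arms that rose or were higher was 18 in wild type, 23 in rps-5 henn-1(0) and 5 in ASE henn-1(0) minus henn-1(+) and the number that fell or were lower was 25 in myo-2 henn-1(0), 22 in myo-3 henn-1(0), 10 in ASE henn-1(+), 21 in elt-2 minus rps-5, 24 in myo-2 minus rps-5 and 18 in myo-3 minus rps-5. With TMM alone, the number that fell or were lower was 21 in wild type, 24 in myo-2 henn-1(0), 21 in myo-3 henn-1(0), 26 in ASE henn-1(+), 8 in ASE henn-1(0), 23 in myo-2 minus rps-5 and 17 in myo-3 minus rps-5 and the number of arms that rose or were higher was 11 in ASE henn-1(0) minus henn-1(+). With RLE alone, the number of arms that rose or were higher was 19 in wild type, 19 in ASE henn-1(+), 10 in elt-2 minus rps-5, 9 in myo-2 minus rps-5, 16 in myo-3 minus rps-5, 9 in ASE minus rps-5 and 6 in myo-3 henn-1(0) minus henn-1(+), the number that fell or were lower was 12 in ASE henn-1(0) minus henn-1(+) and the number that differed was 4 in untreated among genotypes. With no filter on low counts, the number that fell or were lower was 9 in myo-3 henn-1(0), 1 in ASE henn-1(0) and 2 in myo-3 henn-1(0) minus henn-1(+) and the number that differed was 0 in untreated among genotypes. With a minimum count of 30, the number of arms that rose or were higher was 18 in wild type and 8 in ASE minus rps-5 and the number that fell or were lower was 14 in neuronal minus rps-5. With the replicate block, the number of arms that rose or were higher was 5 in ASE henn-1(0) minus henn-1(+). With TMM scaled to an untreated wild type library, an alternative chosen after seeing the data, the number that fell or were lower was 3 in myo-3 henn-1(0) minus henn-1(+). With only the libraries of that genotype, the number of arms that rose or were higher was 3 in rps-5 henn-1(0) and the number that fell or were lower was 8 in rps-5 henn-1(0) and 1 in ASE henn-1(0). With DESeq2, the number of arms that rose or were higher was 20 in wild type, 19 in ASE henn-1(+), 10 in elt-2 minus rps-5, 10 in myo-2 minus rps-5, 16 in myo-3 minus rps-5, 10 in ASE minus rps-5 and 6 in myo-3 henn-1(0) minus henn-1(+), the number that fell or were lower was 12 in ASE henn-1(0) minus henn-1(+) and the number that differed was 7 in untreated among genotypes.

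With 1 library left out at a time, the number of arms that rose or were higher ran from 8 to 11 in wild type, 10 to 13 in rps-5 henn-1(0), 7 to 9 in neuronal minus rps-5, 2 to 3 in elt-2 minus rps-5, 2 to 4 in myo-2 minus rps-5, 4 to 7 in myo-3 minus rps-5, 0 to 6 in ASE minus rps-5, 8 to 12 in rab-3 henn-1(0), 4 to 13 in unc-31 henn-1(0), 13 to 14 in rgef-1 henn-1(0), 8 to 11 in elt-2 henn-1(0), 7 to 10 in myo-2 henn-1(0), 9 to 11 in myo-3 henn-1(+), 0 to 0 in myo-3 henn-1(0) minus henn-1(+), 9 to 12 in myo-3 henn-1(0), 10 to 11 in ASE henn-1(+), 1 to 4 in ASE henn-1(0) minus henn-1(+), 4 to 6 in ASE henn-1(0). The number that fell or were lower ran from 1 to 7 in wild type, 10 to 12 in rps-5 henn-1(0), 19 to 23 in neuronal minus rps-5, 5 to 12 in elt-2 minus rps-5, 3 to 8 in myo-2 minus rps-5, 3 to 5 in myo-3 minus rps-5, 2 to 4 in ASE minus rps-5, 20 to 25 in rab-3 henn-1(0), 6 to 18 in unc-31 henn-1(0), 17 to 22 in rgef-1 henn-1(0), 13 to 17 in elt-2 henn-1(0), 8 to 10 in myo-2 henn-1(0), 5 to 8 in myo-3 henn-1(+), 1 to 4 in myo-3 henn-1(0) minus henn-1(+), 5 to 7 in myo-3 henn-1(0), 4 to 7 in ASE henn-1(+), 5 to 7 in ASE henn-1(0) minus henn-1(+), 1 to 1 in ASE henn-1(0). Among untreated genotypes it ran from 0 to 4.

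Oxidised and untreated libraries were grouped by strain, and a replicate block for the strain changed 26 calls of an arm in a comparison. Of these, 17 were lost and 9 gained, and no other call changed. The wild type replicates, all of strain N2, shared 1 block, so the block did not pair them. The rps-5 replicates 16.1, also of 1 strain, shared a block too. Beside those given above, calls were lost for miR-2213-5p and miR-2219-5p in rps-5, miR-1823-5p in unc-31, miR-2213-5p in elt-2, miR-2207-5p in neuronal minus rps-5, miR-1818-5p in elt-2 minus rps-5, miR-2220-3p in myo-2 minus rps-5 and miR-2217a-3p in myo-3 minus rps-5. Gained were falls or lower differences of miR-1824-3p in rps-5, miR-1832a-5p in elt-2 minus rps-5 and miR-1829b-5p in myo-2 minus rps-5, rises of miR-1824-3p in rab-3 and miR-1818-3p in ASE henn-1(+), and higher differences of miR-1829b-5p and miR-1829c-5p in ASE henn-1(0) minus henn-1(+). Leaving miR-62-3p out of the library totals moved the mean CPM of the 6 most abundant arms by less than the spread between libraries. Causes of these changes were not tested. Depth limits the falls: in oxidised wild type libraries 3 counts came to 7.05 and 3.54 CPM, so a fall of an arm under 1 CPM was not detectable at this depth.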
